A study of Mus musculus with 10 samples.

Results

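Solute carriers are membrane proteins that move small molecules across the plasma membrane and the membranes of organelles, and each gene symbol starts with Slc and a family number. In the deposited RNA-seq values of mouse bone marrow cells, 363 of the 25579 gene rows carry such a symbol when the glucose transporter family Slc2a is left out. Of these, 155 genes reached a level of 5 TPM in at least 2 of 8 libraries and are described here as the expressed solute carriers. TPM is a measure of transcript abundance that corrects for gene length and sequencing depth, which allows levels of different genes to be compared. The 155 genes belong to 39 families, and 4 of them (Slc4a1ap, Slc7a6os, Slc9a3r1 and Slc9a3r2) are named after a carrier but are not carriers themselves. In the same libraries 10692 genes of any kind reached this level. The measured level therefore chose the genes, and a level above 5 TPM is not a finding.

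The cells were sorted directly from the bone marrow of C57BL/6 mice of 4 genotypes, with 2 libraries per genotype. The Pax5(+/+) cells have both alleles of Pax5, a transcription factor that commits progenitors to the B cell lineage and holds them there, and the Pax5(+/-) cells have one. The Pax5(R31Q/-) cells have no wild-type allele and produce Pax5 only from an allele whose arginine at residue 31 of the DNA-binding paired domain was changed to glutamine by genome editing in zygotes. These 3 genotypes were labelled as pro-B cells, the early stage at which B cell progenitors divide in response to interleukin-7, and were sorted by surface markers that included the presence of B220 and Kit and the absence of CD2, IgM and IgD. The Pax5(fl/fl) Vav-Cre cells, in which Cre recombinase under the pan-hematopoietic Vav promoter deletes the floxed allele, were labelled as progenitor cells, while the study also calls them pro-B cells and gives no separate gate for them. The labels do not say whether the 2 libraries of a genotype came from separate mice, so p-values measure the spread between these libraries, which may be technical. Binding was mapped by ChIP-seq with an antibody to the Pax5 paired domain in pro-B cells that had been cultured on stromal cells with interleukin-7, with 1 library from Rag2(-/-) cells, which have wild-type Pax5, and 1 from Pax5(R31Q/-) cells. The description of the latter library in the labels writes Rag2(R31Q/-), and its listed genotype was followed.

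Between 21625407 (Pax5(fl/fl) Vav-Cre replicate 1) and 34488454 reads on genes lay behind a library, as worked out from the ratios of TPM between libraries. Pax5 itself stood at 418 and 444 TPM in Pax5(+/+), 272 and 287 TPM in Pax5(+/-), 306 and 293 TPM in Pax5(R31Q/-), and 1242 and 1409 TPM in Pax5(fl/fl) Vav-Cre libraries, and the deleted exon is not visible in a value for the whole gene. The summed level of 10 pro-B cell markers was 7724 to 8467 TPM in the Pax5(fl/fl) Vav-Cre libraries against 14556 to 18565 TPM elsewhere. Markers of other cell types also differed between libraries. The 7 myeloid markers summed to 2065 TPM in Pax5(fl/fl) Vav-Cre replicate 1 and 316 TPM in replicate 2, against 397 to 1525 TPM elsewhere. The sum over 6 genes of cell division was 224 to 258 TPM in the Pax5(fl/fl) Vav-Cre libraries and 907 to 1746 TPM elsewhere. Among the erythroid markers, Alas2 and Klf1 were detected in every library, the globin genes Hba-a2 and Hbb-bs were at 0 in all of them, and the 6 genes measured summed to 13.0 to 34.4 TPM in Pax5(fl/fl) Vav-Cre against 71.2 to 128 TPM elsewhere. The T and NK cell markers summed to 10.1 to 19.9 TPM. The part of these differences in the results below was not tested, and in such bulk samples fewer cells of a type cannot be told apart from less RNA per cell.

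Carriers are often grouped by what they move. Exchangers and symporters of the plasma membrane bring in amino acids, nucleosides, vitamins and metals, potassium-chloride and bicarbonate carriers set cell volume and pH, the Slc35 family supplies the Golgi and the endoplasmic reticulum with nucleotide sugars, and the Slc25 family exchanges metabolites across the mitochondrial inner membrane (Slc25a17 works in peroxisomes). Proliferating lymphocytes depend on the import of glutamine and leucine, and large neutral amino acid exchangers of the Slc7 family need the heavy chain encoded by Slc3a2 to reach the cell surface.

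Of the expressed solute carriers, 114 have at least 1 entry in the RefSeq promoter table (build GRCm38.p6). The sequences of 5 genes whose expression differed between genotypes are shown because they cover 3 of the 4 kinds of Pax5 binding at the transcription start site (TSS) that are described further down, all but a Pax5(+/+) peak that no Pax5(R31Q/-) peak met. Each run holds the bases before the annotated gene on the strand of the gene, with every CG step, the dinucleotide that is methylated and enriched in broadly active promoters, in capitals. Peaks of both binding lists cover the stretches of Slc25a1 (chr16:17928220-17928469, minus strand) and Slc30a5 (chr13:100833481-100833677, minus strand), a peak of the Pax5(R31Q/-) list alone covers 216 of the bases of Slc25a53 (chrX:137038303-137038552, minus strand), and no peak of either list covers Slc12a3 (chr8:94328958-94329108, plus strand) or Slc25a45 (chr19:5877572-5877800, plus strand).
Slc25a1: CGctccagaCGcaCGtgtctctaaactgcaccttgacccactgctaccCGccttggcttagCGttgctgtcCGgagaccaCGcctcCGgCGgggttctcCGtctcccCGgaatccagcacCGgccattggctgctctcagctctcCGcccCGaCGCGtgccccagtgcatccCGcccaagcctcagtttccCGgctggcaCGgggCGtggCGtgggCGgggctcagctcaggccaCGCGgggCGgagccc
Slc30a5: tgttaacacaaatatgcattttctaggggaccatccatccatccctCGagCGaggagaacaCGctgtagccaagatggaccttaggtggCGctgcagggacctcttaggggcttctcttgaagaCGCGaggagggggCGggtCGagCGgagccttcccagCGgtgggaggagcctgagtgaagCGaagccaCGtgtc
Slc25a53: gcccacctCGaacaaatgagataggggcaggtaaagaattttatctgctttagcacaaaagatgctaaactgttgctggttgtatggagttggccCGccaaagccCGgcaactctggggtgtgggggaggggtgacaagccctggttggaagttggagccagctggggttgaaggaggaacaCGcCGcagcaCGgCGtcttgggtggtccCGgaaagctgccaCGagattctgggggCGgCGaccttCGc
Slc12a3: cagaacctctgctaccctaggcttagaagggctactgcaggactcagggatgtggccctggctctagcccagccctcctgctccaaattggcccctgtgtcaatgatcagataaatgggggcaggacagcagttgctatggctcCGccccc
Slc25a45: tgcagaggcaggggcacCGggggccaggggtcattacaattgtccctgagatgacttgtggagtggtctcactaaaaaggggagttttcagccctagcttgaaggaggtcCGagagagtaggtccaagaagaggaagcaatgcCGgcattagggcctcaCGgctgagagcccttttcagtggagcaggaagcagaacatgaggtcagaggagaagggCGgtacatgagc
The runs hold 25 CG steps for Slc25a1 over 250 bases, 12 for Slc30a5 over 197 bases, 12 for Slc25a53 over 250 bases, 1 for Slc12a3 over 151 bases and 5 for Slc25a45 over 229 bases.

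Most of the expressed solute carriers were detected in all genotypes. At 5 TPM or more, 124 genes were present in all 8 libraries, 25 in 3 to 7 libraries and 6 in exactly 2. The median over the 155 genes of the mean TPM was 19.7, with 39 genes under 10 TPM, 78 from 10 to 50 TPM, 18 from 50 to 100 TPM and 20 above 100 TPM. Together they took 0.750% to 0.829% of the TPM of a library. The level of Slc25a5, an exchanger of ADP for ATP, was the highest (555 to 697 TPM over the 8 libraries), followed by Slc25a3, the mitochondrial phosphate carrier (527 to 625 TPM). These ranges overlap, so their order does not hold in every library, and Slc25a5 has processed copies in the genome that can share its reads. The next 8 by mean level were the citrate carrier Slc25a1 (164 to 892 TPM), the ADP/ATP exchanger Slc25a4 (219 to 329 TPM), the glutamine transporter Slc1a5 (125 to 476 TPM), the lactate and pyruvate transporter Slc16a1 (173 to 291 TPM), the zinc transporter Slc30a5 (62.8 to 323 TPM), the scaffold Slc9a3r1 (185 to 248 TPM), the glutamine transporter Slc38a2 (124 to 305 TPM) and the nucleoside transporter Slc29a1 (151 to 248 TPM). Their ranges all overlap. This order rests on means over all 4 genotypes. Slc25a1 averaged 833 TPM in Pax5(fl/fl) Vav-Cre, but 192 TPM in Pax5(+/+) and 241 TPM in Pax5(R31Q/-). In Pax5(+/+), Slc1a5 averaged 449 TPM. The genes just inside the level rule were Slc37a3, Slc22a21, Slc25a42, Slc25a14 and Slc5a6, with a second-highest library at 5.28, 5.34, 6.07, 6.26 and 6.43 TPM, and those just outside were Slc30a1, Slc39a8, Slc26a11, Slc38a6 and Slc35g1, with 4.99, 4.63, 4.26, 4.26 and 4.25 TPM.

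**Figure D1:**
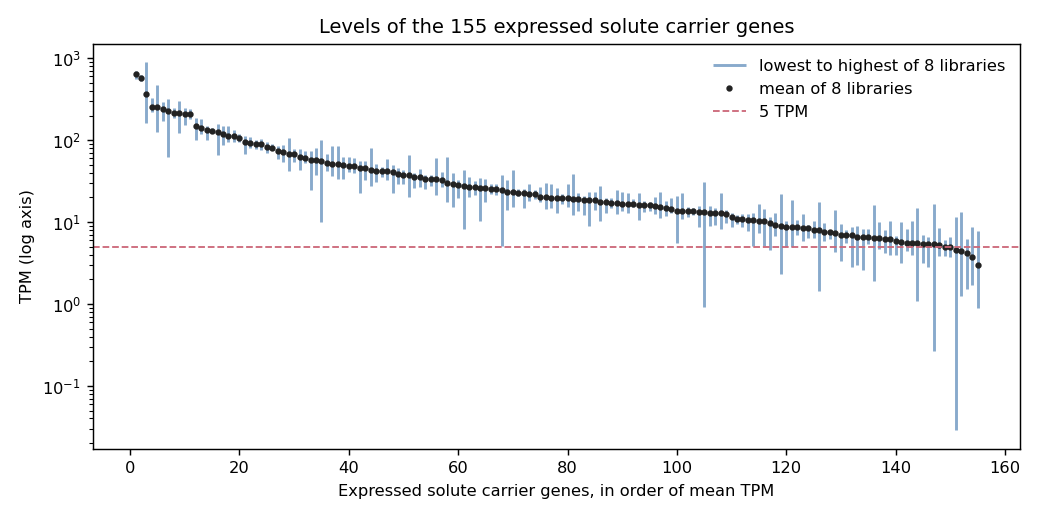
TPM (log axis) of the 155 expressed solute carriers in order of their mean; points are the mean of 8 libraries, bars run from the lowest to the highest library, and the dashed line marks 5 TPM. Levels run over more than 2 orders of magnitude of mean TPM, from Slc25a5 at a mean of 647 TPM downwards, and most bars are short beside that range.

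The libraries of a genotype differed little for most genes. On the TPM + 1 scale, more than 1.5-fold apart were 13 genes in Pax5(+/+), 3 in Pax5(+/-), 1 in Pax5(R31Q/-) and 21 in Pax5(fl/fl) Vav-Cre, where 122 of the 155 genes were higher in the second library. The single gene on this scale in Pax5(R31Q/-) was Slc15a2, a peptide transporter, with 4.25 and 21.8 TPM, and 2 weakly expressed genes given further down, Slc12a3 and Slc52a3, were also more than 1.5-fold apart there in TPM itself. Slc15a2 had 4.83 and 12.4 TPM in Pax5(+/-), 14.9 and 9.91 TPM in Pax5(+/+) and 2.4 and 2.33 TPM in Pax5(fl/fl) Vav-Cre, and its libraries overlap between the 3 pro-B cell genotypes.

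Differences between genotypes were tested with limma on log2(TPM + 1) over 13436 genes, and a gene was called at an adjusted p under 0.05 (Benjamini-Hochberg). This scale understates the change of weakly expressed genes. A solute carrier entered a comparison only if at least 2 of the 4 libraries outside the genotypes compared reached 5 TPM, so that the compared levels had not chosen it, and the others are described by their values. The smallest p that an exact permutation test allows for 2 against 2 libraries is 0.333, and the calls depend on the spread that limma pools over genes.

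The first comparison asks which carriers differ when the mutant allele is the only source of Pax5. Against Pax5(+/+) pro-B cells, 5 of the 152 solute carriers tested were lower in those with the R31Q allele (Slc52a3, Slc12a3, Slc1a5, Slc17a9 and Slc25a23) and 4 were higher (Slc5a9, Slc9a2, Slc43a1 and Slc25a53), while 2.55% of all genes tested were called lower and 1.62% higher. The carriers' shares were 3.29% and 2.63%. Their median difference was -0.01 on the log2 scale, beside 0.04 over all genes tested. By the call rule of the study, which also asks for a difference above 3-fold (taken here on the log2(TPM + 1) scale) and a mean above 5 TPM, 3 were lower and 2 higher, beside 0.558% and 0.298% of all genes tested.

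Slc1a5, the sodium-dependent exchanger that brings glutamine into the cell, lies on chromosome 7 from 16781334 to 16798274. It had 422 and 476 TPM in Pax5(+/+), 305 and 276 TPM in Pax5(+/-), 138 and 133 TPM in Pax5(R31Q/-), and 125 and 143 TPM in Pax5(fl/fl) Vav-Cre libraries. The first 3 genotypes do not overlap, and the last 2 do. The difference between Pax5(R31Q/-) and Pax5(+/+) was -1.72 (SE 0.12, adjusted p = 0.000785 by limma), and that between Pax5(R31Q/-) and Pax5(+/-) was -1.09 (SE 0.12, adjusted p = 0.0155). Between Pax5(fl/fl) Vav-Cre and Pax5(R31Q/-) it was -0.02 (SE 0.12).

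Slc52a3, a transporter of riboflavin (vitamin B2), lies on chromosome 2 from 151996511 to 152009258. It had 9.53 and 15 TPM in Pax5(+/+), 5.94 and 6.19 TPM in Pax5(+/-), 1.09 and 1.65 TPM in Pax5(R31Q/-), and 2.67 and 1.94 TPM in Pax5(fl/fl) Vav-Cre libraries, so that no Pax5(R31Q/-) library reached the level of any Pax5(+/-) library. The difference between Pax5(R31Q/-) and Pax5(+/+) was -2.46 (SE 0.25, adjusted p = 0.00259 by limma), and that between Pax5(R31Q/-) and Pax5(+/-) was -1.59 (SE 0.25, adjusted p = 0.0461). The other riboflavin transporter, Slc52a2, stayed between 5.45 and 8.25 TPM over the 8 libraries and was not called.

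Slc12a3, the thiazide-sensitive sodium-chloride cotransporter best known from the kidney, lies on chromosome 8 from 94329109 to 94366222. It had 22.5 and 30.8 TPM in Pax5(+/+), 20.9 and 16.6 TPM in Pax5(+/-), 7.40 and 4.72 TPM in Pax5(R31Q/-), and 0.907 and 0.965 TPM in Pax5(fl/fl) Vav-Cre libraries. The 4 genotypes do not overlap. The difference between Pax5(R31Q/-) and Pax5(+/+) was -1.98 (SE 0.24, adjusted p = 0.00574 by limma).

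The other 2 lower genes had smaller differences. Slc17a9, which loads ATP into vesicles, had 36.3 and 66.4 TPM in Pax5(+/+) and 20.03 and 19.99 TPM in Pax5(R31Q/-) (-1.26, SE 0.25, adjusted p = 0.0340 by limma). Slc25a23, a calcium-regulated carrier of ATP and magnesium into mitochondria, had 22.5 and 28.7 TPM in Pax5(+/+) and 14.2 and 14.5 TPM in Pax5(R31Q/-) (-0.78, SE 0.16, adjusted p = 0.0436). Neither gene was called lower than Pax5(+/+) in the Pax5(fl/fl) Vav-Cre libraries, which had 40.3 and 45.3 TPM of Slc17a9 and 32.9 and 30.1 TPM of Slc25a23. Both were called higher there than in Pax5(R31Q/-) (1.06, SE 0.25, adjusted p = 0.0152 for Slc17a9, and 1.08, SE 0.16, adjusted p = 0.00255 for Slc25a23). That of Slc17a9 was lost without any one of the 4 libraries (adjusted p up to 0.0918).

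Slc43a1, a sodium-independent transporter of leucine and other large neutral amino acids, lies on chromosome 2 from 84838855 to 84863586. It had 45.9 and 42.3 TPM in Pax5(+/+), 65.8 and 66.3 TPM in Pax5(+/-), 107 and 99.0 TPM in Pax5(R31Q/-), and 62.2 and 61.8 TPM in Pax5(fl/fl) Vav-Cre libraries. Its highest level was thus in Pax5(R31Q/-), with no overlap with another genotype. The difference between Pax5(R31Q/-) and Pax5(+/+) was 1.20 (SE 0.11, adjusted p = 0.00164 by limma).

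Slc5a9, a sodium-coupled sugar transporter with a preference for mannose and glucose, lies on chromosome 4 from 111875374 to 111902796. It had 1.43 and 3.75 TPM in Pax5(+/+), 4.31 and 3.18 TPM in Pax5(+/-), 17.8 and 16.8 TPM in Pax5(R31Q/-), and 7.91 and 9.22 TPM in Pax5(fl/fl) Vav-Cre libraries. Again the Pax5(R31Q/-) libraries were the highest. The difference from Pax5(+/+) was 2.43 (SE 0.31, adjusted p = 0.00657 by limma) and that from Pax5(+/-) was 1.96 (SE 0.31, adjusted p = 0.0461).

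Slc9a2, a sodium-proton exchanger of epithelia, lies on chromosome 1 from 40681712 to 40768885. It had 0.267 and 0.507 TPM in Pax5(+/+), 1.96 and 1.65 TPM in Pax5(+/-), 6.08 and 6.16 TPM in Pax5(R31Q/-), and 9.45 and 16.8 TPM in Pax5(fl/fl) Vav-Cre libraries. The 4 genotypes do not overlap, each higher than the one before, and the difference between Pax5(R31Q/-) and Pax5(+/+) was 2.37 (SE 0.26, adjusted p = 0.00393 by limma). Slc25a53, a mitochondrial carrier whose substrate is not known, had 10.7 and 10.3 TPM in Pax5(+/+), 25.8 and 17.9 TPM in Pax5(R31Q/-), and 22.6 and 27.3 TPM in Pax5(fl/fl) Vav-Cre libraries (0.97, SE 0.20, adjusted p = 0.0368 for Pax5(R31Q/-) against Pax5(+/+)).

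**Figure D2:**
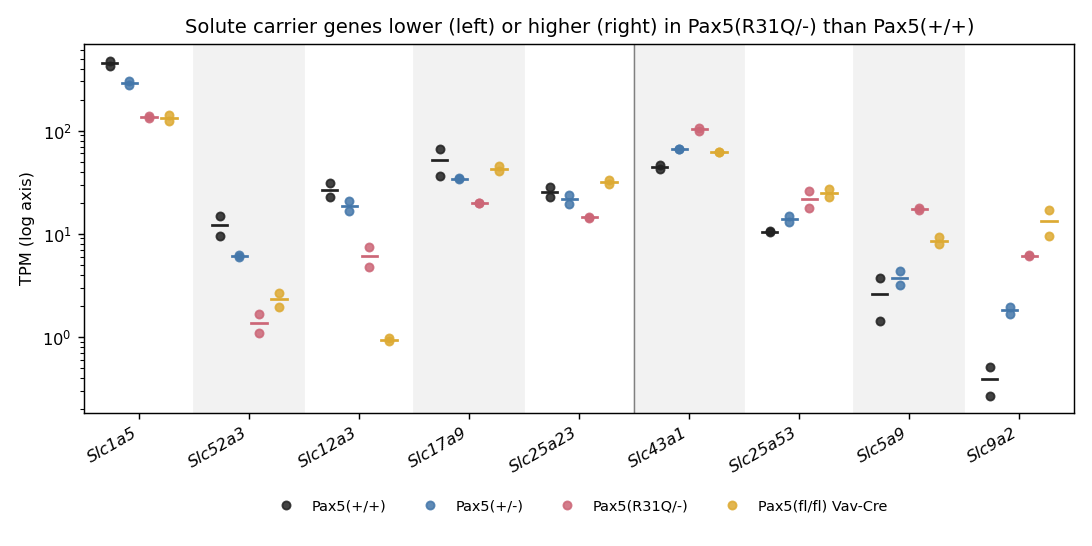
TPM (log axis) of the 9 solute carriers called between Pax5(R31Q/-) and Pax5(+/+), with 1 point per library, 2 per genotype, and a line at their mean. The Pax5(+/-) points lie between those of Pax5(+/+) and Pax5(R31Q/-) for genes that include Slc1a5 (305 and 276 TPM), Slc43a1 (65.8 and 66.3 TPM) and Slc9a2. They also do for Slc52a3 (5.94 and 6.19 TPM) and Slc12a3. Levels in Pax5(+/+) and Pax5(+/-) helped to choose these latter genes, so nothing is read from their order. Slc17a9 and Slc25a23 return to 30.1 TPM or more in Pax5(fl/fl) Vav-Cre.

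Slc1a5, Slc52a3 and Slc43a1 were called against Pax5(+/+) without any one of the libraries. The call of Slc12a3 was lost without Pax5(+/+) replicate 2 or Pax5(R31Q/-) replicate 2, those of Slc5a9 and Slc9a2 without either Pax5(R31Q/-) library, and those of Slc17a9, Slc25a23 and Slc25a53 without either Pax5(R31Q/-) library or Pax5(+/+) replicate 2 (Slc25a53 also without Pax5(+/+) replicate 1). The calls of Slc12a3, Slc17a9, Slc25a23, Slc25a53 and Slc5a9 were also lost without the filter on low values and with only the compared genotypes in the fit. The counts fell to 2 lower without Pax5(+/+) replicate 2, to 3 lower and 1 higher without Pax5(R31Q/-) replicate 1, and to 2 lower and 1 higher without Pax5(R31Q/-) replicate 2. Slc17a9, Slc43a1 and Slc25a53 overlap a gene on the other strand, and the strand setting of the counting is not stated, so their reads cannot be told apart from those of the overlapping genes. The same holds for 46 of the 155 genes in all. Among those called in the comparisons that follow are Slc7a7, Slc11a2, Slc14a1, Slc16a10, Slc6a6, Slc15a3, Slc16a6, Slc23a1, Slc23a2, Slc25a25, Slc30a4, Slc35b4, Slc38a9, Slc39a11, Slc39a13 and Slc4a2.

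One wild-type allele in place of 2 gave no call. Of 148 solute carriers tested between Pax5(+/-) and Pax5(+/+), 0 were called by limma on TPM or by limma-voom on the recovered reads, beside 0.0223% of all genes called lower and 0% called higher. At an unadjusted p under 0.05, 2 were lower and 6 higher, beside 423 and 391 of the 13436 genes. The 0 calls do not show that levels were equal. In data simulated with known changes between Pax5(R31Q/-) and Pax5(+/+), limma found 0% of those of 1.5-fold and 56.5% of those of 2-fold. The 7 genes not tested here are Slc52a3, Slc12a3, Slc25a35, Slc45a3, Slc15a2, Slc23a1 and Slc37a3. Levels in these genotypes helped to choose them, so nothing is read from their order. Slc25a35, a mitochondrial carrier, had 5.48 and 4.16 TPM in Pax5(+/-) and 6.73 and 10.2 TPM in Pax5(+/+). Slc45a3 had 6.11 and 2.79 TPM in the former and 6.47 and 11.7 TPM in the latter. Between Pax5(R31Q/-) and Pax5(+/-), 2 of 152 were lower (Slc52a3 and Slc1a5, beside 0.350% of all genes) and 1 was higher (Slc5a9, beside 0.268%), and each of these calls was lost when any one of the 4 libraries was left out, which leaves 0 in either direction.

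Loss of Pax5 gave the most calls. In Pax5(fl/fl) Vav-Cre progenitors, 28 of the 145 solute carriers tested were lower than in Pax5(+/+) pro-B cells and 30 were higher, a share of 19.3% and 20.7%, while 19.7% of all genes tested were called lower and 16.2% higher. Among genes of any kind that met the same level rule, 21.4% were lower and 13.8% higher. By the call rule of the study 7 were lower and 3 higher, beside 3.82% and 3.07% of all genes tested. The median difference of the carriers was -0.11, the same as over all genes tested (-0.11), which median-ratio scaling and quantile normalization moved to -0.02 and -0.01 over all genes. With these 2 scalings 24 were lower in either case, and 35 and 36 were higher. Both counts were smaller with only the compared genotypes in the fit, and the lower count was smaller without the filter on low values. Without Pax5(fl/fl) Vav-Cre replicate 2, 43 were lower and 29 higher, and without replicate 1, the library with the high myeloid markers, 20 were lower and 32 higher. The genotypes also differ in labelled cell type and in the markers of cell division given above, and these cannot be told apart from the genotype. The classes in the paragraphs that follow were not tested as sets. Their counts stand beside the 19.7% and 16.2% of all genes called lower and higher.

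Among the 18 members of families that carry amino acids, 5 were lower (Slc1a5, Slc7a7, Slc36a4, Slc38a9 and Slc43a3, which is counted here by its family but is known to carry purine nucleobases), 5 were higher (Slc43a1, Slc6a6, Slc43a2, Slc7a1 and Slc38a7) and 8 were not called. Their summed level was 1506 and 1549 TPM in Pax5(+/+), 1430 and 1427 TPM in Pax5(+/-), 1383 and 1258 TPM in Pax5(R31Q/-), and 1072 and 1228 TPM in Pax5(fl/fl) Vav-Cre libraries, and most of the gap between the first and the last lies in Slc1a5. Slc1a5 fell by 1.74 on the log2 scale in Pax5(fl/fl) Vav-Cre against Pax5(+/+) (SE 0.12, adjusted p = 5.29e-05 by limma). Slc7a7, the light chain of the y+L exchanger of cationic for neutral amino acids, had 39.7 and 43.0 TPM in Pax5(+/+), 31.9 and 31.6 TPM in Pax5(+/-), 28.1 and 25.1 TPM in Pax5(R31Q/-), and 8.16 and 10.5 TPM in Pax5(fl/fl) Vav-Cre libraries. Its levels fall over the 4 genotypes without overlap, and the last differed from the first by -2.04 (SE 0.15, adjusted p = 7.13e-05). Slc36a4, a high-affinity transporter of proline and tryptophan, had 8.93 and 8.73 TPM in Pax5(+/+) and 2.96 and 4.27 TPM in Pax5(fl/fl) Vav-Cre (-1.11, SE 0.19, adjusted p = 0.00386).

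The heavy chain Slc3a2 (70.4 to 95.4 TPM over the 8 libraries) and its partner Slc7a5, the leucine exchanger (76.5 to 104 TPM), were not called. A further light chain, Slc7a11, which imports cystine in exchange for glutamate, had 39.1 and 32.5 TPM in Pax5(R31Q/-) and 18.8 and 15.3 TPM in Pax5(fl/fl) Vav-Cre (-1.03, SE 0.23, adjusted p = 0.0129), and 33.6 and 21.7 TPM in Pax5(+/+). The call was lost without either Pax5(R31Q/-) library or Pax5(fl/fl) Vav-Cre replicate 2 (adjusted p up to 0.105). Slc6a6, the taurine transporter, had 36.8 and 46.2 TPM in Pax5(+/+), 40.9 and 39.7 TPM in Pax5(R31Q/-), and 76.2 and 83.9 TPM in Pax5(fl/fl) Vav-Cre, and was called higher than in both (0.97, SE 0.14, adjusted p = 0.00182 against Pax5(R31Q/-)). The glutamine transporter Slc38a2 had 232 and 189 TPM in Pax5(+/+), 305 and 254 TPM in Pax5(R31Q/-), and 124 and 168 TPM in Pax5(fl/fl) Vav-Cre. It was called lower in the last than in Pax5(R31Q/-) (-0.95, SE 0.18, adjusted p = 0.00627) but not without Pax5(R31Q/-) replicate 1 (adjusted p = 0.0636).

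Among 32 Slc25 genes tested, 4 were lower (Slc25a51, Slc25a10, Slc25a25 and Slc25a24), 4 were higher (Slc25a1, Slc25a45, Slc25a53 and Slc25a4) and 24 were not called. Over all genes tested, 19.7% were lower and 16.2% higher. Slc25a1 exports citrate from mitochondria, where it supplies acetyl-CoA for lipid synthesis in the cytosol, and lies on chromosome 16 from 17925211 to 17928219. It had 164 and 221 TPM in Pax5(+/+), 224 and 197 TPM in Pax5(+/-), 246 and 237 TPM in Pax5(R31Q/-), and 892 and 774 TPM in Pax5(fl/fl) Vav-Cre libraries. The last genotype stands apart from the other 3, with a difference of 2.12 from Pax5(+/+) (SE 0.16, adjusted p = 7.91e-05 by limma) and 1.78 from Pax5(R31Q/-) (SE 0.16, adjusted p = 0.000239).

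The summed level of the 35 Slc25 genes was 2762 and 2738 TPM in Pax5(+/+) and 3525 and 3499 TPM in Pax5(fl/fl) Vav-Cre libraries, a gap that is largely that of Slc25a1. Slc25a45, a carrier of uncertain substrate, had 30.7 and 33.2 TPM in Pax5(+/+), 32.1 and 32.6 TPM in Pax5(R31Q/-), and 76.1 and 79.7 TPM in Pax5(fl/fl) Vav-Cre (1.26 against Pax5(+/+), SE 0.11, adjusted p = 0.000151). Slc25a53 was higher by 1.17 (SE 0.20, adjusted p = 0.00318). The iron importer of mitochondria Slc25a37 (68.3 to 112 TPM over the 8 libraries) and its paralog Slc25a28 (54.6 to 87.1 TPM) were not called.

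**Figure D3:**
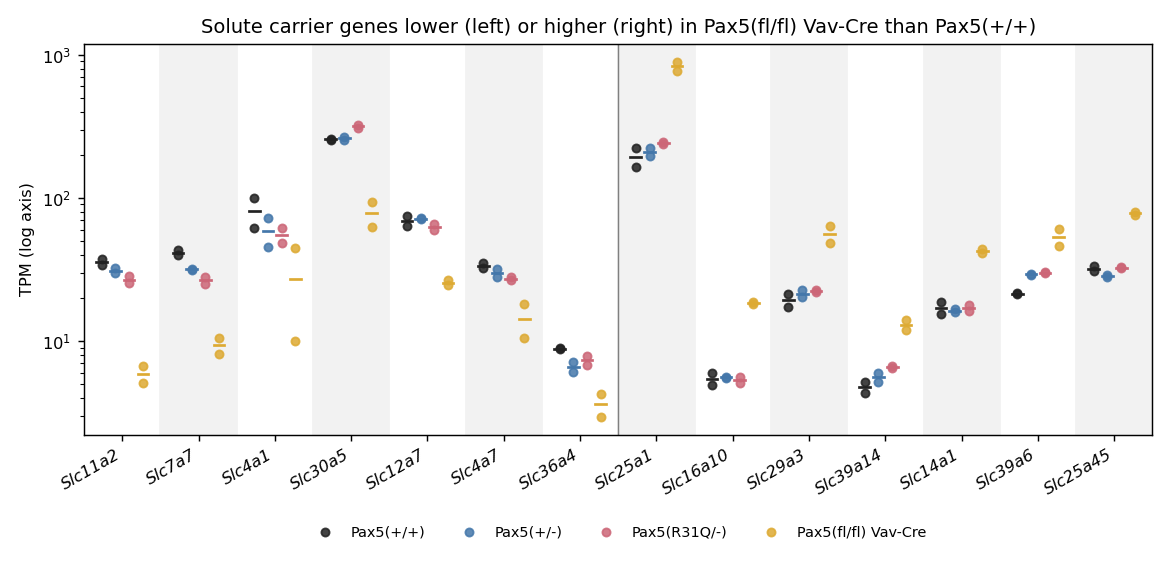
TPM (log axis) of 14 solute carriers with the largest called differences between Pax5(fl/fl) Vav-Cre and Pax5(+/+), leaving out genes already plotted for Pax5(R31Q/-); 1 point per library and a line at the mean of 2. The Pax5(fl/fl) Vav-Cre points stand apart from the other 3 genotypes for 13 of the genes, among them Slc25a1 at 892 and 774 TPM, and for Slc4a1 one of them lies beside the other genotypes and one far below (44.6 and 9.95 TPM).

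Metal carriers were among the 10 largest called falls (Slc11a2 and Slc30a5) and the 10 largest called rises (Slc39a14 and Slc39a6). Slc30a5 moves zinc into the early secretory pathway and lies on chromosome 13 from 100802645 to 100833480. It had 260 and 253 TPM in Pax5(+/+), 268 and 254 TPM in Pax5(+/-), 323 and 309 TPM in Pax5(R31Q/-), and 62.8 and 94.2 TPM in Pax5(fl/fl) Vav-Cre libraries. It fell by 1.72 on the log2 scale against Pax5(+/+) (SE 0.18, adjusted p = 0.000320 by limma) and by 2.02 against Pax5(R31Q/-) (SE 0.18, adjusted p = 0.000205). Its partner Slc30a6 (13.6 to 17.4 TPM over the 8 libraries) was not called.

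Slc11a2, the importer of ferrous iron (DMT1), lies on chromosome 15 from 100387898 to 100424209. It had 37.5 and 33.8 TPM in Pax5(+/+), 29.7 and 32.2 TPM in Pax5(+/-), 28.3 and 25.2 TPM in Pax5(R31Q/-), and 5.1 and 6.71 TPM in Pax5(fl/fl) Vav-Cre libraries, a fall over the 4 genotypes without overlap. The difference from Pax5(+/+) was -2.42 (SE 0.16, adjusted p = 4.41e-05 by limma) and that from Pax5(R31Q/-) was -2.02 (SE 0.16, adjusted p = 0.000145). Of the 15 zinc carriers tested, Slc30a5, Slc30a4 and Slc39a13 were lower, Slc39a6, Slc39a14 and Slc39a11 were higher and 9 were not called.

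Slc39a14, which imports zinc, manganese and iron, had 5.17 and 4.32 TPM in Pax5(+/+) and 11.8 and 14.1 TPM in Pax5(fl/fl) Vav-Cre (1.28, SE 0.17, adjusted p = 0.00110), and the zinc importer Slc39a6 had 21.7 and 21.3 TPM in the former and 46.3 and 60.7 TPM in the latter (1.27, SE 0.15, adjusted p = 0.000551). The summed level of the 16 zinc carriers was 646 and 614 TPM in Pax5(+/+), 714 and 691 TPM in Pax5(R31Q/-), and 449 and 560 TPM in Pax5(fl/fl) Vav-Cre libraries.

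Among 17 carriers of inorganic ions, 6 were lower (among them Slc12a3, Slc4a1, Slc12a7, Slc4a7 and Slc4a2), 2 were higher (Slc9a2 and Slc8b1) and 9 were not called. The potassium-chloride cotransporter Slc12a7 had 63.9 and 74.1 TPM in Pax5(+/+) and 24.5 and 26.5 TPM in Pax5(fl/fl) Vav-Cre libraries. It differed by -1.40 (SE 0.12, adjusted p = 0.000150 by limma). Its relative Slc12a4 (9.83 to 14.2 TPM over the 8 libraries) was not called. Slc4a7, a sodium-bicarbonate cotransporter, had 32.3 and 34.8 TPM in Pax5(+/+) and 10.5 and 18.2 TPM in Pax5(fl/fl) Vav-Cre (-1.22, SE 0.23, adjusted p = 0.00535, and 0.0537 with only the compared genotypes in the fit).

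Slc4a1, the anion exchanger of the red cell membrane (band 3), had 99.3 and 61.8 TPM in Pax5(+/+), 45.4 and 72.5 TPM in Pax5(+/-), 61.1 and 48.7 TPM in Pax5(R31Q/-), and 44.6 and 9.95 TPM in Pax5(fl/fl) Vav-Cre libraries. Its fitted difference was -1.83 (SE 0.60, adjusted p = 0.0472 by limma), and -2.86 to -0.80 over 12 alternatives. The call was lost in 9 of them. These were the fits without Pax5(fl/fl) Vav-Cre replicate 2 or either Pax5(+/+) library, and those with median-ratio scaling, quantile normalization or a pseudocount of 0.1. The call was also lost without the variance trend, without the filter on low values, and with only the compared genotypes in the fit. The erythroid gene Alas2 varied alongside, with 101 and 57.7 TPM in Pax5(+/+) and 23.0 and 8.83 TPM in Pax5(fl/fl) Vav-Cre libraries, and the part of erythroid cells in this difference was not tested. Slc12a3 fell by 3.82 (SE 0.24, adjusted p = 3.79e-05) and Slc9a2 was higher by 3.30 (SE 0.26, adjusted p = 9.36e-05), the largest called differences of the expressed solute carriers in each direction.

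The sugar and nucleotide sugar carriers (25 tested) held 3 lower genes, Slc35a5, Slc35a3 and Slc35b4, and 5 higher genes, Slc5a9, Slc35a1, Slc37a4, Slc45a4 and Slc35c1. Slc35a1 carries CMP-sialic acid into the Golgi, and it had 13.4 and 12.1 TPM in Pax5(+/+), 21.8 and 20.5 TPM in Pax5(R31Q/-), and 19.7 and 38.9 TPM in Pax5(fl/fl) Vav-Cre. Slc35a3, a carrier of UDP-N-acetylglucosamine, had 22.3 and 23.3 TPM in Pax5(R31Q/-) and 8.97 and 14.2 TPM in Pax5(fl/fl) Vav-Cre (-0.95, SE 0.21, adjusted p = 0.0129), a call that was lost without either Pax5(R31Q/-) library (adjusted p up to 0.0879). Slc37a4, which brings glucose-6-phosphate into the endoplasmic reticulum, had 13.2 and 11.3 TPM in Pax5(+/+) and 23.4 and 22.6 TPM in Pax5(fl/fl) Vav-Cre. Slc5a9 was higher by 1.49 (SE 0.31, adjusted p = 0.00776), a call lost without the filter on low values and with only the compared genotypes in the fit (adjusted p up to 0.0590).

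Of 4 monocarboxylate family genes tested, 3 were higher and 1 was not called, beside 16.2% of all genes called higher. Slc16a10, which carries aromatic amino acids and thyroid hormone, had 5.94 and 4.90 TPM in Pax5(+/+), 5.65 and 5.51 TPM in Pax5(+/-), 5.62 and 5.11 TPM in Pax5(R31Q/-), and 18.8 and 18.2 TPM in Pax5(fl/fl) Vav-Cre libraries (1.61 against Pax5(+/+), SE 0.16, adjusted p = 0.000256 by limma). Slc16a13 and Slc16a6 were the other two. The abundant lactate transporter Slc16a1 (271 and 182 TPM in Pax5(+/+), 173 and 216 TPM in Pax5(fl/fl) Vav-Cre) was not called.

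Of the 4 nucleoside carriers, Slc29a1 was lower and Slc29a3 and Slc29a2 were higher. Slc29a1, the equilibrative transporter of the plasma membrane, had 194 and 224 TPM in Pax5(+/+) and 157 and 151 TPM in Pax5(fl/fl) Vav-Cre, while its lysosomal relative Slc29a3 had 17.4 and 21.3 TPM in the former and 48.6 and 63.2 TPM in the latter (1.48, SE 0.17, adjusted p = 0.000530). The concentrative transporter Slc28a2 (20.02 to 35.2 TPM over the 8 libraries) was not called.

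Of the 9 carriers of vitamins, choline and haem, Slc52a3 and Slc23a1 were lower and Slc19a1 and Slc23a2 higher. The difference of Slc52a3 was -1.98 (SE 0.25, adjusted p = 0.000775 by limma). The ascorbate transporters Slc23a1 and Slc23a2 thus moved apart, with 4.78 and 10.1 TPM and 16.9 and 15.4 TPM in Pax5(+/+), and 3.18 and 3.36 TPM and 27.6 and 29.1 TPM in Pax5(fl/fl) Vav-Cre, respectively. The reduced folate carrier Slc19a1 had 36.1 and 40.2 TPM in Pax5(+/+) and 59.4 and 52.0 TPM in Pax5(fl/fl) Vav-Cre.

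In the smaller groups, the urea transporter Slc14a1 had 15.4 and 18.9 TPM in Pax5(+/+), 17.7 and 16.3 TPM in Pax5(R31Q/-), and 43.6 and 41.5 TPM in Pax5(fl/fl) Vav-Cre libraries (1.27 against either, SE 0.14, adjusted p = 0.000480 and 0.000636 by limma). The fatty acid transporter Slc27a1 and the bile acid family member Slc10a3 were higher and Slc10a7 was lower among 5 tested. The phosphate importer Slc20a1 had 48.2 and 46.4 TPM in Pax5(+/+) and 22.5 and 35.4 TPM in Pax5(fl/fl) Vav-Cre and was lower, as was the magnesium transporter Slc41a1 (20.8 and 23.3 TPM against 14.1 and 16.8 TPM). The lysosomal peptide transporter Slc15a3 had 10.5 and 14.9 TPM in Pax5(+/+) and 18.6 and 22.8 TPM in Pax5(fl/fl) Vav-Cre and was higher. Of the genes that are not carriers, 0 of 3 tested were called by limma.

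**Figure D4:**
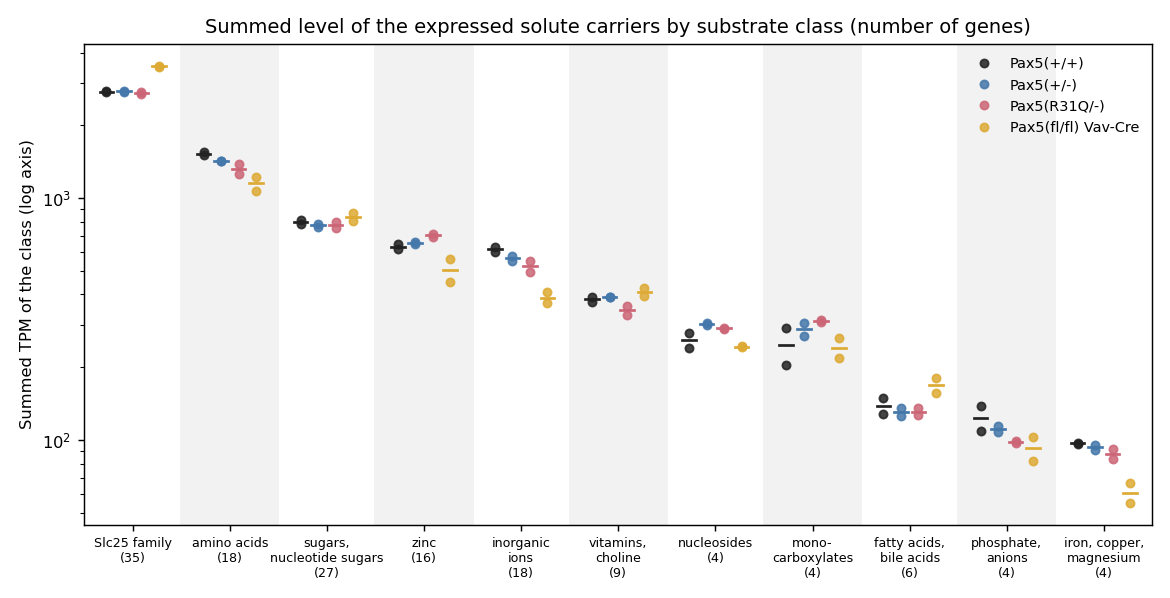
Summed TPM (log axis) of the expressed solute carriers in each substrate class with at least 4 carriers, the number of genes in parentheses; 1 point per library and a line at the mean of 2 per genotype. The Slc25 family is higher in Pax5(fl/fl) Vav-Cre (3525 and 3499 TPM) than in the other genotypes, and the amino acid carriers (1072 and 1228 TPM), the inorganic ion carriers (368 and 408 TPM) and the iron group (55.1 and 66.3 TPM) are lower there. The zinc carriers (449 and 560 TPM) are also lower there. Also higher are the fatty acid carriers (156 and 181 TPM) and, narrowly, the vitamin and choline carriers (394 and 425 TPM).

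Between Pax5(fl/fl) Vav-Cre and Pax5(R31Q/-), 23 of 146 solute carriers were lower and 27 higher, 15.8% and 18.5%, beside 19.9% and 14.7% of all genes tested. Quantile normalization gave 25 and 39. Without Pax5(R31Q/-) replicate 1 the counts were 10 and 13, without replicate 2 they were 11 and 12, and without Pax5(fl/fl) Vav-Cre replicate 2 they were 45 and 28. Both comparisons of the Pax5(fl/fl) Vav-Cre cells share those libraries. Slc30a5, Slc11a2, Slc12a3, Slc7a7 and Slc12a7 were called lower in each of them, and Slc25a1, Slc16a10, Slc14a1, Slc29a3 and Slc25a45 were called higher. The largest fall against Pax5(R31Q/-) was that of Slc45a3, a transporter of the sugar-proton symporter family, with 4.67 and 4.21 TPM in Pax5(R31Q/-) and 0.0286 and 0.0406 TPM in Pax5(fl/fl) Vav-Cre (-2.39, SE 0.34, adjusted p = 0.00193 by limma). The latter values rest on 1 and 2 reads, and the ratio of summed reads per depth was 0.00857 (95% interval 0.00176 to 0.0252, counting error only). Slc9a5, a sodium-proton exchanger, had 8.19 and 9.23 TPM in Pax5(R31Q/-) and 3.34 and 4.81 TPM in Pax5(fl/fl) Vav-Cre (-0.95, SE 0.25, adjusted p = 0.0232), a call that was lost without either Pax5(R31Q/-) library or Pax5(fl/fl) Vav-Cre replicate 1 (adjusted p up to 0.136).

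Over the 4 genotypes in the order Pax5(+/+), Pax5(+/-), Pax5(R31Q/-), Pax5(fl/fl) Vav-Cre, 6 solute carriers were lower at each step without overlap between neighbours (Slc12a3, Slc11a2, Slc7a7, Slc4a7, Slc10a7 and Slc39a13), which is 3.87% of 155, beside 2.46% of all genes tested, and 3 were higher at each step (Slc9a2, Slc9a9 and Slc39a6), beside 2.14%. Slc9a2 and Slc9a9 reached 5 TPM only through the genotypes where they were high, and Slc12a3 reached it in no Pax5(fl/fl) Vav-Cre library, where it was lowest. The shares over all genes also include genes that do not meet the level rule. Nothing is therefore read from the counts of 6 and 3.

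**Figure D5:**
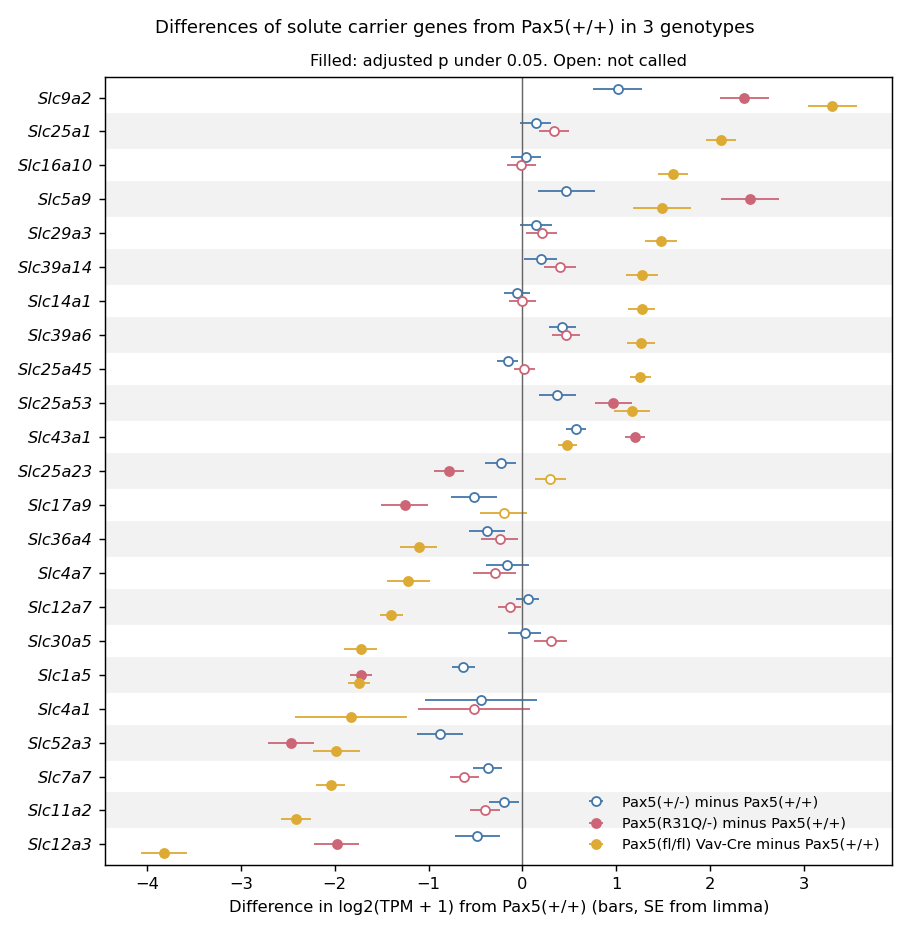
Differences in log2(TPM + 1) from Pax5(+/+) with their SE for the solute carriers with the largest called differences in Pax5(R31Q/-) or Pax5(fl/fl) Vav-Cre. Filled points were called. Open points were either not called or not tested, as for Slc52a3 and Slc12a3 in Pax5(+/-). The 3 comparisons share the Pax5(+/+) libraries. Slc43a1 and Slc5a9 lie further to the right in Pax5(R31Q/-) (1.20 and 2.43) than in Pax5(fl/fl) Vav-Cre (0.48 and 1.49), and Slc25a23 and Slc17a9 lie to the left only in Pax5(R31Q/-) among the called values.

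Some solute carriers met the level rule through the libraries of a comparison and were not tested in it. Of these, 10 were not tested between Pax5(fl/fl) Vav-Cre and Pax5(+/+). Slc9a9, an endosomal sodium-proton exchanger, had 15.2 and 16.0 TPM in Pax5(fl/fl) Vav-Cre and 1.89 to 4.48 TPM in the other libraries. The zinc importer Slc39a4 had 13.4 and 10.8 TPM there and 1.25 to 2.62 TPM elsewhere, the very long chain fatty acid transporter Slc27a2 had 7.89 and 7.26 TPM there and 0.898 to 1.93 TPM elsewhere, and the scaffold Slc9a3r2 had 8.66 and 7.09 TPM there and 1.72 to 2.96 TPM elsewhere. Slc25a33, a carrier of pyrimidine nucleotides, had 7.81 and 8.52 TPM there and 3.91 to 4.59 TPM elsewhere. In the other direction Slc45a3 had 6.47 and 11.7 TPM in Pax5(+/+), and Slc37a3 had 5.28 and 4.09 TPM in Pax5(+/+) and 1.54 and 2.74 TPM in Pax5(fl/fl) Vav-Cre. Slc25a35, Slc25a42 and Slc22a21 had ranges of 3.98 to 10.2, 3.76 to 6.54 and 3.87 to 6.12 TPM over the 8 libraries. Between Pax5(R31Q/-) and Pax5(+/-), Slc37a3, Slc23a1 and Slc19a2, a thiamine transporter, were not tested, and the last had 6.92 and 6.60 TPM in the former and 5.82 and 6.84 TPM in the latter. Between Pax5(fl/fl) Vav-Cre and Pax5(R31Q/-), 9 were not tested, among them Slc5a9 and Slc9a2.

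Partners and regulators of carriers were measured beside them in a list of 20 genes. In Pax5(fl/fl) Vav-Cre against Pax5(+/+), 5 were lower, 5 were higher and 10 were not called, beside 19.7% and 16.2% of all genes called lower and higher. Emb, a chaperone of monocarboxylate transporters, had 34.0 and 29.5 TPM in Pax5(+/+) and 151 and 165 TPM in Pax5(fl/fl) Vav-Cre libraries (2.28, SE 0.22, adjusted p = 0.000222 by limma), while Bsg, the other such chaperone, stayed between 286 and 338 TPM over the 8 libraries and was not called. Atp1b1, a subunit of the sodium-potassium pump whose gradient drives many carriers, had 360 and 354 TPM in Pax5(+/+), 353 and 350 TPM in Pax5(+/-), 187 and 162 TPM in Pax5(R31Q/-), and 38.5 and 73.1 TPM in Pax5(fl/fl) Vav-Cre libraries. Its difference between the last and the first was -2.73 (SE 0.26, adjusted p = 0.000212). Atp1b3, an alternative subunit, had 491 and 497 TPM in Pax5(+/+), 757 and 814 TPM in Pax5(R31Q/-), and 745 and 944 TPM in Pax5(fl/fl) Vav-Cre, and was called higher in both.

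Atf4, a transcription factor that activates amino acid transporter genes, had 369 and 423 TPM in Pax5(+/+) and 192 and 224 TPM in Pax5(fl/fl) Vav-Cre libraries (-0.93, SE 0.12, adjusted p = 0.00106), and Myc, which is known to activate the Slc1a5 and Slc7a5 genes, had 113 and 182 TPM in the former and 379 and 382 TPM in the latter (1.40, SE 0.20, adjusted p = 0.00143). Mtor, the kinase that senses amino acids at the lysosome, had 59.1 and 58.3 TPM in Pax5(+/+), 38.2 and 34.2 TPM in Pax5(R31Q/-), and 32.8 and 36.6 TPM in Pax5(fl/fl) Vav-Cre, and was called lower in both. In Pax5(R31Q/-) against Pax5(+/+), Mtor (lower) and Atp1b3 (higher) were the 2 of 20 genes that were called, beside 2.55% of all genes lower and 1.62% higher.

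Pax5 peaks were set against the genes to see which carriers the factor binds. The peak lists hold positions only, with 1 library per genotype, 41983 peaks in the Pax5(+/+) list (from Rag2(-/-) cells) and 18821 in the Pax5(R31Q/-) list. A Pax5(+/+) peak lay within 1 kb of a TSS at 113 of the 155 solute carriers, or 72.9% (95% exact binomial interval 65.2% to 79.7%), against 75.5% of 10509 annotated genes that met the same level rule, so binding at the start site was no more common at solute carriers than at other expressed genes. At 107 of the 113 a Pax5(R31Q/-) peak overlapped it by at least 1 base. At the other 6, or 5.31% (1.97% to 11.2%), against 3.29% of genes at the level rule, no Pax5(R31Q/-) peak met it, and these were Slc14a1, Slc15a3, Slc25a14, Slc35d1, Slc39a4 and Slc45a4. Slc35d1 still had 2 Pax5(R31Q/-) peaks within 1 kb of its TSS, which did not overlap the Pax5(+/+) peak. If the overlap had to cover 50% of both peaks, 19 genes had no matching peak (16.8%, against 15.1%).

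At 16 solute carriers (10.3%, against 7.81% of genes at the level rule) only the Pax5(R31Q/-) list had a TSS peak, among them Slc9a2, Slc25a53, Slc29a1 and Slc25a5. At 26 of 155, against 1750 of 10509, neither list had one, among them Slc12a3, Slc7a7, Slc5a9, Slc45a3 and Slc25a45. Of 124 Pax5(+/+) peaks at a TSS of a solute carrier, 92.7% were met, and of 98 peaks in the gene away from the TSSs, 56.1% were met. Peaks of other genes were not counted in this way, and nothing particular to solute carriers is read from these shares. The peaks that were met were wider, with a median of 578 against 276 bp at a TSS and 377 against 310 bp elsewhere, and the part of peak strength in this difference was not tested, since the lists give no score above 0.

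Among the lower genes in Pax5(R31Q/-), Slc52a3 and Slc1a5 had TSS peaks in both lists. At Slc1a5 the Pax5(+/+) peak of 571 bp was centred 106 bp upstream of the TSS and a second one of 847 bp lay 3211 bp downstream. The Pax5(R31Q/-) list had a peak over each, of 695 and 788 bp, and a further one of 768 bp between them. At Slc52a3 the Pax5(+/+) list had 1 peak of 582 bp and the Pax5(R31Q/-) list 2, of 383 and 300 bp, and only the former of these overlaps the Pax5(+/+) peak. At Slc43a1 both lists had a peak at a TSS, of 489 and 994 bp, and one 15 kb downstream, of 671 and 648 bp. At Slc12a3 neither list had a TSS peak, and both had one 34 kb downstream, within the gene, of 343 and 550 bp. At Slc5a9 neither list had a peak in the gene. The lower and the higher genes of this comparison thus both included genes with and without a TSS peak.

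The calls were also counted by class of binding, and calls of other genes in these classes were not counted. In Pax5(fl/fl) Vav-Cre against Pax5(+/+), 19.7% of all genes tested were called lower and 16.2% higher. Of 103 tested solute carriers with a Pax5(+/+) TSS peak that a Pax5(R31Q/-) peak met, 19 were lower and 20 higher. Of 22 without a peak in either list, 6 were lower and 4 higher. Of 15 with a peak in the Pax5(R31Q/-) list alone, 3 were lower and 3 higher, and of 5 with a Pax5(+/+) peak that was not met, 0 were lower and 3 higher. In Pax5(R31Q/-) against Pax5(+/+), where 2.55% of all genes tested were lower and 1.62% higher, the 107 genes with a met peak held 4 lower and 1 higher, the 16 with a Pax5(R31Q/-) peak alone held 0 lower and 2 higher, the 6 with a peak that was not met held 0 calls by limma, and the 23 without a peak held 1 lower and 1 higher. The peaks come from cultured cells and the expression from sorted cells.

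Over 159 promoters of 114 genes (250 bases before to 50 after the start), the median GC content was 61.7%, against 60.7% for the genes at the level rule and 52.7% for all promoters. The observed over expected ratio of CG steps had a median of 0.670, against 0.772 and 0.384, and was above 0.6 in 62.3% of these promoters, against 72.2% and 35.8%. It was 0.752 in promoters of solute carriers whose TSS peak was in both lists and 0.540 in those of genes with no TSS peak. A match to GCGTGAC or its reverse complement GTCACGC, a core of the sequence that the paired domain recognizes, was found in 6 of the 159 promoters, or 3.77%, against 3.92% at the level rule and 2.09% of all promoters. They belong to Slc25a36, Slc25a40, Slc25a42, Slc35f5, Slc5a6 and Slc7a6os. None of these was called against Pax5(+/+) in Pax5(R31Q/-) cells, nor were those tested in Pax5(fl/fl) Vav-Cre cells, where Slc25a42 was left untested.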

How the data were processed

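Values of 8 RNA-seq libraries, 2 per genotype, and the peaks of 2 ChIP-seq libraries were analyzed as deposited. The authors removed ribosomal reads, aligned 50-nt single reads to GRCm38/mm10 with STAR 2.4.2, counted reads on 25579 RefSeq-based genes with featureCounts and deposited TPM values. The strand setting is not given in the sources used here. The ratios of TPM between libraries gave whole reads for all 18206 genes above 0 in 2 or more libraries. They are the smallest whole numbers with these ratios, so reads that share a common factor over the libraries are understated. Genes above 0 in only 1 library were left out. The median solute carrier had 956 to 1087 reads in 7 libraries and 664 in Pax5(fl/fl) Vav-Cre replicate 1. The deposited peak files hold a start and an end from the authors' peak caller (MACS, on Bowtie2 2.3.5.1 alignments) and a score of 0 throughout, called on each library.

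The test was limma (version 3.58.1, R version 4.3.3) on log2(TPM + 1) of all 8 libraries, with a variance trend, for 13436 genes that reached 1 TPM in any library. The script was tested on simulated data. The authors used DESeq2, which was not run here, and limma-voom served as the test on recovered reads. Their call rule (adjusted p under 0.05, above 3-fold, mean above 5 TPM) was an alternative. Other alternatives changed the pseudocount (0.1), the filter, the scaling, the trend, the libraries in the fit, the peak window (0.2 or 2.5 kb) and the overlap (50%). Peaks were set against the RefSeq annotation of GRCm38.p6 in Python 3.11.15 with pandas 2.3.3 and scipy 1.17.1; plots used matplotlib 3.10.9. Statistics are given for up to 10 solute carriers in each direction of each comparison, those with the largest differences among the called, and values for the others. Members of the substrate classes and of the lists of markers and partners, and the solute carriers themselves, were chosen with earlier results of these data known. Some items are not reported here.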

Additional observations from a re-analysis of the deposited data

How the results depend on the processing

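No paired analysis was possible because the labels give the libraries no replicate numbers. Counts of solute carriers, lower and then higher, are given for 4 comparisons, and Pax5(+/-) against Pax5(+/+) gave 0 under every alternative run. For Pax5(R31Q/-) against Pax5(+/+) (5 and 4), they were 2 and 2 without a filter on low values, 2 and 2 with only the compared genotypes in the fit, and 3 and 2 by the call rule of the study. For Pax5(fl/fl) Vav-Cre against Pax5(+/+) (28 and 30), the lower count was 17 without a filter, both were 11 with only the compared genotypes, and they were 7 and 3 by the rule of the study. For Pax5(R31Q/-) against Pax5(+/-) (2 and 1), they were 0 and 0 without a filter and 1 and 2 with only the compared genotypes, the lower count was 1 by the rule of the study, and the higher count was 3 with limma-voom, 2 with median-ratio scaling, 0 with a pseudocount of 0.1 and 3 with quantile normalization. For Pax5(fl/fl) Vav-Cre against Pax5(R31Q/-) (23 and 27), the lower count was 15 without a filter and 13 with only the compared genotypes, and they were 3 and 2 by the rule of the study. The cause was not tested, except that the rule of the study adds 2 conditions and fits of 2 genotypes hold 4 libraries. Leaving out 1 library gave 2 to 5 and 1 to 3 for the first comparison, 19 to 43 and 23 to 32 for the second, 0 and 0 for the third, and 10 to 45 and 12 to 28 for the fourth, and the lone library left in a genotype is then assumed to vary like the others. The share of solute carriers whose TSS peak was not met rose from 5.31% to 16.8% when the overlap had to cover 50% of both peaks. Of 624 refits of 52 differences that the naming rule chose, 546 kept direction and call, 78 lost the call and 0 reversed.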

Other observations

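Of the 363 solute carrier rows, 208 did not reach 5 TPM in 2 libraries, and 27 of the 363 were listed at 0 in all 8 libraries. The following genes among the 208 are named after their values were seen, and as their level in the compared genotypes could decide whether they were examined, their values are given without a test. Slc46a1, the proton-coupled folate transporter, averaged 2.31 TPM in the Pax5(+/+) libraries and 1.25 TPM in the Pax5(+/-) libraries, while means of 0.238 and 0.813 TPM were found with Pax5(R31Q/-) and Pax5(fl/fl) Vav-Cre, respectively (n = 2 each). Like the riboflavin transporter Slc52a3, it had its lowest mean in the Pax5(R31Q/-) cells. The creatine transporter Slc6a8 averaged 2.00 TPM in Pax5(+/+) and 0.403 TPM in Pax5(fl/fl) Vav-Cre, and Slc7a8, a further light chain of Slc3a2, averaged 1.58 and 0.298 TPM. In the other direction, Slc35f4 averaged 0.0214 TPM in Pax5(+/+) and 1.66 TPM in Pax5(fl/fl) Vav-Cre, and Slc5a11, a sodium-coupled inositol transporter, averaged 0.272 and 1.80 TPM.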
